A study of Mus musculus with 3 samples.

Results

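The miR-379 to miR-3072 miRNAs come from 30 hairpins on the + strand of mouse chromosome 12, in the imprinted Dlk1-Dio3 region. They were chosen by name, as every listed 5p or 3p arm of these hairpins, and the 5 hairpins miR-323, miR-382, miR-485, miR-541 and miR-543 of the same stretch were kept apart as a comparison list. In genomic order the hairpins are miR-379, miR-411, miR-299, miR-380, miR-1197, miR-758, miR-329, miR-494, miR-679, miR-1193, miR-666, miR-495, miR-667, miR-376c, miR-376b, miR-376a, miR-300, miR-381, miR-487b, miR-539, miR-134, miR-668, miR-154, miR-496, miR-377, miR-409, miR-412, miR-369, miR-410 and miR-3072. Of their 60 arms, 57 are among the 693 miRNAs listed in TAG1 ES cells, and miR-1197-5p, miR-679-3p and miR-376c-5p are not listed. The listed arms are 28 5p and 29 3p arms.

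A miRNA is cut from a hairpin in a longer transcript, and either arm of the hairpin can enter an Argonaute protein and guide it to mRNAs, mainly through the seed near the 5′ end. In the Dlk1-Dio3 region the non-coding RNAs Meg3, Rian and Mirg and their miRNAs and snoRNAs are made from the maternal chromosome, while Dlk1, Rtl1 and Dio3 are made from the paternal one. The maternal transcripts are known from ES cells, embryo, placenta and brain, and their silencing in some pluripotent lines goes with poor developmental potential. In neurons the row of hairpins is known to be transcribed under the control of Mef2.

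Small RNA was sequenced from 1 library per condition. Control cells were untreated and grown with FBS. SB cells received 30 µM of the Alk4/5/7 receptor inhibitor SB, named SB-431541 in the labels and SB-431542 in the methods, for 16 hrs. Dox cells received the same SB treatment and then 1 µg/µl doxycycline for 12 hrs. All 3 libraries came from TAG1, a single mouse ES cell line made from J1 ES cells, which carries a doxycycline-inducible, constitutively active Alk4 receptor (Alk4*) that phosphorylates Smad2/3 without ligand. SB blocks that phosphorylation, and all cells were grown with LIF. SB and Dox cells were grown with Knockout Serum Replacement in place of FBS, so medium and treatment cannot be told apart in any comparison with the Control library. SB against Control asks what was lost when Smad2/3 signalling was shut off. Dox against SB asks what followed when SB treatment gave way to induction of the receptor. The end of the SB treatment, doxycycline itself and the 12 hrs longer in culture also separate Dox from SB cells. They cannot be told apart from the receptor in these libraries.

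The hairpins span 38901 bases, chr12:109709060-109747960 on GRCm38. The first 20, miR-379 to miR-539, lie upstream of the annotated Mirg gene (chr12:109729764-109749460). The other 10, miR-134 to miR-3072, lie within Mirg, and 7 of these overlap an annotated Mirg exon, while the miR-154, miR-496 and miR-409 hairpins lie in its introns. RefSeq (GRCm38.p6) gave the mature sequence of 54 listed members, leaving miR-376c-3p, miR-487b-3p and miR-539-3p without one here. The sequences were 19 to 25 bases long and carried 51 distinct seeds, so most members had a seed that no other member had.

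Seeds, counted as bases 2 to 8, are in capitals in all the sequences shown here. The 3 seeds that were shared by more than 1 member are shown first, since members with a common seed can be compared directly. GGUAGAC is shared by miR-379-5p and miR-1193-5p, AUGUAAC by miR-379-3p and miR-411-3p, and GGUUGUC by miR-494-5p and miR-410-5p.
miR-379-5p: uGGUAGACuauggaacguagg
miR-1193-5p: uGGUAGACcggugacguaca
miR-379-3p: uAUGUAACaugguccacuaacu
miR-411-3p: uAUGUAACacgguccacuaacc
miR-494-5p: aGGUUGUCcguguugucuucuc
miR-410-5p: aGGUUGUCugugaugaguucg

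Other members are alike along their length but differ in the seed. The miR-376a-3p and miR-376b-3p pair and the miR-300-3p and miR-381-3p pair are shown because reads had to match perfectly to be counted, and a few bases separate each pair. Numbered from 1 at the 5′ end, with the first-named miRNA's base first, miR-376a-3p and miR-376b-3p differ at G4A, A13C and G20U, and miR-300-3p and miR-381-3p at G4A, U21G and C22U.
miR-376a-3p: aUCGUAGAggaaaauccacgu
miR-376b-3p: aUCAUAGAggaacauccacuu
miR-300-3p: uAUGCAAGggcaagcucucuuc
miR-381-3p: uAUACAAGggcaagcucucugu

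The last set is both arms of the miR-299, miR-329 and miR-154 hairpins, whose arms differed in their ratio of Dox over SB, and miR-134-5p, the most abundant of the members that were lower in both steps.
miR-299-5p: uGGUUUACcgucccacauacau
miR-299-3p: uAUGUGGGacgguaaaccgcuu
miR-329-5p: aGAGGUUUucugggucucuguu
miR-329-3p: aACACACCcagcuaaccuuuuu
miR-154-5p: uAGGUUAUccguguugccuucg
miR-154-3p: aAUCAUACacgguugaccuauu
miR-134-5p: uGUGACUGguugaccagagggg

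Levels are given in RPM, the reads of a miRNA for each 1000000 reads of the library as the authors scaled them. The RPM of 1 read, 0.0881 to 0.101, corresponds to 9895513 to 11354692 reads as the base of the authors' scaling. These bases are smaller than the total reads that the study gives for its libraries, and the cause was not tested. Of these reads, those on listed miRNAs made up 28.3% in the Control, 24.1% in the SB and 33.4% in the Dox library. Intervals are exact 95% intervals and cover counting error only, as there were neither replicates nor molecular identifiers. The 21 listed arms of the ES cell miRNAs miR-290 to miR-295 and miR-302 held 27.0% to 28.9% of the listed reads in the 3 libraries. Of these 21, 7 were lower and 5 higher at SB than in Control, against 30.2% and 15.3% of all listed miRNAs. At Dox, 8 were lower and 9 higher than at SB, against 17.9% and 41.7%. A list of 27 miRNAs abundant in fibroblasts and other differentiated cells, let-7 included, summed to 19974 RPM in the Control, 39098 RPM in the SB and 20111 RPM in the Dox library. Of the 27, 24 were higher at SB than in Control (against 15.3% of all listed miRNAs), and 23 were lower at Dox than at SB (against 17.9%). None was at 0. The part of this shift in the results on the members was not tested. In bulk RNA, fewer cells that make a miRNA and less of it per cell cannot be told apart.

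The members covered a wide range of levels. In the Control library they ran from 6 reads (miR-668-5p, 0.548 RPM) to 20472 reads (miR-376a-3p, 1869 RPM), with a median of 16.9 RPM. The 10 members with 1000 or more reads in all 3 libraries together held 81.5% of the members' RPM in Control, 80.5% at SB and 79.5% at Dox. At the other end, 20 members had under 100 reads in every library, and 7 had under 10 reads in at least 1 library. The miR-487b-5p and miR-539-3p arms, with 16 and 45 reads over the 3 libraries, had the same 3 read numbers as another listed miRNA. Whether any reads were shared was not tested.

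**Figure D1:**
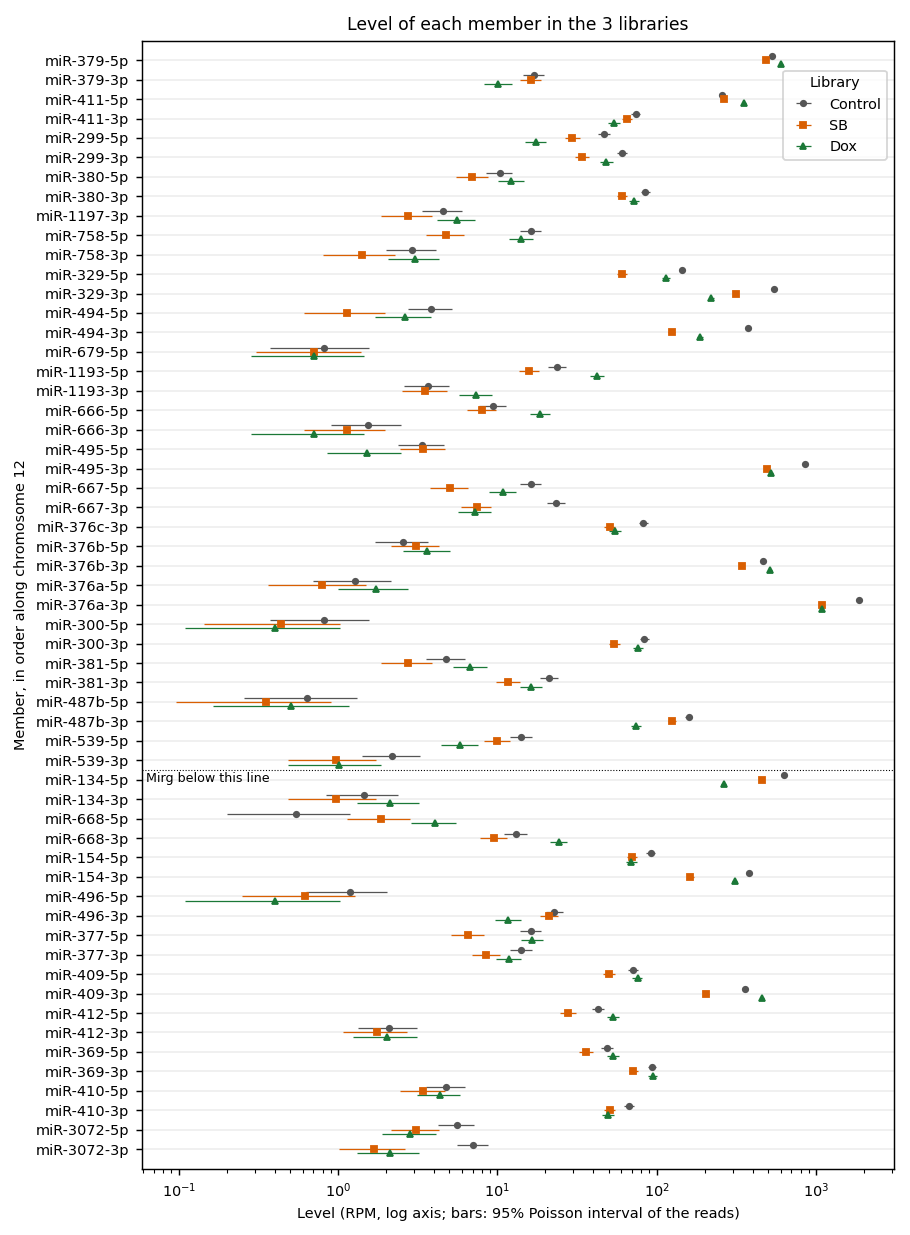
Level of each of the 57 members in RPM on a log axis, in order along the chromosome, with 1 point per library and bars for the 95% Poisson interval of its reads. The orange SB points lie left of the grey Control points for 53 of the 57 members, while the green Dox points lie on either side.

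Most members were lower after SB. Of the 57, 38 were called lower at SB than in Control, where a call needed a log2 ratio of at least 0.32 in size, the fold-change threshold of the study, and a Z-score on the reads of both libraries beyond the two-sided 0.05 limit of the normal distribution. This was 66.7% of the members, against 30.2% of all 693 listed miRNAs. Only miR-668-5p was called higher, with 6 reads in Control and 21 at SB, against 15.3% of all listed miRNAs, and 18 members were neither. The Z-score compares 2 libraries and not the conditions.

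The members' summed level was 7684 RPM in Control and 4895 RPM at SB, 36.3% lower (log2 ratio -0.65, interval -0.67 to -0.64). The median log2 ratio of the members was -0.62, and that of all listed miRNAs was -0.19. How low this is depends on the scaling, since the median of all listed miRNAs moved to 0.04 when libraries were scaled to the reads on listed miRNAs. Relative to that median, the members' median was -0.43, a difference that 1 factor per library cannot change. It was -0.43 after quantile normalization and -0.32 with a pseudocount of 1 RPM. The call at SB held for 22 members under all 4 scalings tried.

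The most abundant member, miR-376a-3p, had 1869 RPM in Control, 1085 RPM at SB and 1089 RPM at Dox. It was lower in both treated libraries (SB over Control log2 ratio -0.78, interval -0.82 to -0.75), which were within counting error of each other per library read (Dox over SB 0.01, -0.03 to 0.04) but not with reads on listed miRNAs (-0.46, -0.50 to -0.42). miR-495-3p, second in abundance, had 851, 496 and 523 RPM (SB over Control -0.78, -0.83 to -0.73). Its Dox level was above that at SB by little more than counting error per library read (0.077, 0.022 to 0.13) and below it with reads on listed miRNAs (-0.39). Of the abundant members, miR-494-3p had the lowest ratio, with 375 RPM in Control, 124 RPM at SB and 187 RPM at Dox (-1.59, -1.68 to -1.51). miR-154-3p had 381, 163 and 310 RPM (-1.23, -1.31 to -1.15), and it was among those that were higher again at Dox.

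Among the 37 members with at least 100 reads in at least 1 library, the 5 lowest ratios of SB over Control belonged to miR-494-3p and 4 less abundant arms. miR-758-5p had 178 reads in Control, 54 at SB and 140 at Dox (log2 ratio -1.77, interval -2.24 to -1.33). The miR-667 hairpin was low on both arms, with 178, 57 and 107 reads for miR-667-5p (-1.69) and 256, 84 and 72 reads for miR-667-3p (-1.66). miR-377-5p had 178, 74 and 164 reads (-1.32, -1.73 to -0.92). For these 4 arms, as for miR-494-3p, the SB level was under that of Control in each case by more than counting error.

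The hairpins miR-379 and miR-411, at the 5′ end of the row, stood apart from this. The arms of miR-379 and miR-411, which lie next to each other (chr12:109709060-109709125 and chr12:109710175-109710256), made up 4 of the 5 highest ratios of SB over Control among those 37 members, and none of the 4 was called lower. miR-379-5p had 530 RPM in Control and 489 RPM at SB (log2 ratio -0.12, interval -0.17 to -0.06). miR-411-5p had 256 and 264 RPM (0.05, -0.03 to 0.12). With reads on listed miRNAs, miR-379-5p was above Control at SB (0.11, 0.06 to 0.17), as was miR-411-5p (0.28, 0.21 to 0.35). The direction of miR-379-5p thus depends on the scaling. The other highest ratio was that of miR-496-3p, from the Mirg end, with 250 reads in Control and 240 at SB (-0.11, -0.37 to 0.15). Summed over its arms, the ratio per library read was below 1 for 29 of the 30 hairpins, with an interval below 1 in 25. It was lowest for miR-667 (-1.67), and miR-411 was the exception (0.00099, -0.07 to 0.07). The intervals of miR-679, miR-666, miR-668 and miR-496 also took in a ratio of 1. All listed miRNAs together had a log2 ratio of -0.23, and that of the miR-379 hairpin (-0.12) lay above it. With reads on listed miRNAs, miR-411 is therefore not the only exception.

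**Figure D2:**
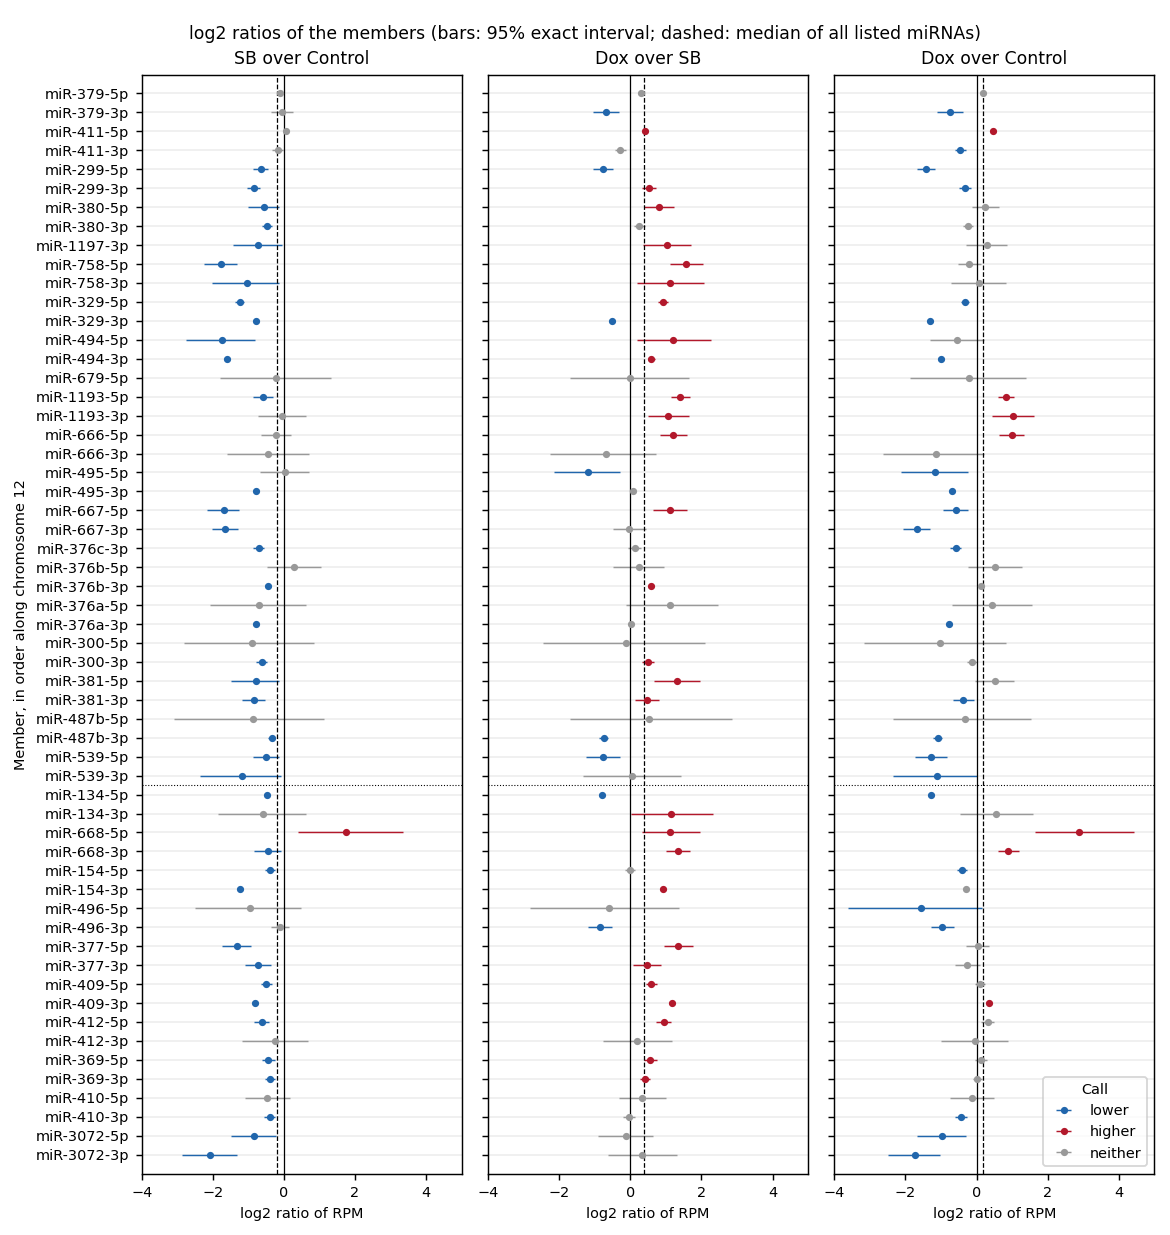
log2 ratio of RPM for each member in 3 comparisons, in order along the chromosome, with bars for the 95% exact interval, a dashed line at the median of all listed miRNAs and a dotted line where Mirg begins. The SB over Control panel is mostly blue (38 lower, 1 higher), the Dox over SB panel holds 28 higher and 8 lower members, and the Dox over Control panel 24 lower and 7 higher.

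After Dox the members went different ways. Of the 57, 28 were called higher at Dox than at SB (49.1%, against 41.7% of all listed miRNAs), 8 were called lower (14.0%, against 17.9%) and 21 were neither. These shares were thus near those of all listed miRNAs. The median log2 ratio of Dox over SB was 0.42 for the members and 0.38 for all listed miRNAs, a difference of 0.04 that 1 factor per library cannot change and that was 0.15 with a pseudocount of 1 RPM. The median log2 ratio of the members was -0.05 with reads on listed miRNAs, where 12 members were higher (21.1%, against 23.5% of all listed miRNAs) and 15 lower (26.3%, against 31.5%). With median-of-ratios factors 14 were higher (24.6%, against 26.7%) and 12 lower (21.1%, against 29.0%). After quantile normalization 17 were higher (29.8%, against 29.4%) and 11 lower (19.3%, against 25.4%).

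The summed level of the members was 4895 RPM at SB and 5685 RPM at Dox, 16.1% higher (log2 ratio 0.22, interval 0.20 to 0.23), while the 636 other listed miRNAs together were 38.8% higher. As a share of all reads on listed miRNAs, the members held 2.71% in Control, 2.03% at SB and 1.70% at Dox. The log2 ratio of the sums was therefore above 0 per library read and below 0 when scaled to the reads on listed miRNAs (-0.25), where that of the other listed miRNAs was 0.0048.

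Among the same 37 members, the highest ratios of Dox over SB were those of miR-758-5p (1.57, 1.11 to 2.05), miR-1193-5p, miR-668-3p, miR-377-5p and miR-666-5p. miR-1193-5p had 260 reads in Control, 180 at SB and 417 at Dox (1.41, 1.15 to 1.67). miR-668-3p had 143, 108 and 240 reads (1.35, 1.02 to 1.69), and miR-666-5p had 103, 91 and 184 reads (1.21, 0.84 to 1.59). In these 3 the Dox level was above both others, and they kept both calls at Dox, over SB and over Control, under all 4 scalings. Among the abundant members the highest ratio was that of miR-409-3p, with 359 RPM in Control, 205 RPM at SB and 459 RPM at Dox (1.16, 1.09 to 1.23).

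The 8 members that were called lower at Dox than at SB were miR-379-3p, miR-299-5p, miR-329-3p, miR-495-5p, miR-487b-3p, miR-539-5p, miR-134-5p and miR-496-3p, and all 8 kept this call under the 4 scalings. miR-134-5p had 633 RPM in Control, 458 RPM at SB and 263 RPM at Dox, lower at each step (Dox over SB -0.80, -0.87 to -0.74). In brain, miR-134 is known as a repressor of Limk1 in dendrites, and in mouse ES cells it has been described as a repressor of Nanog and Sox2. miR-329-3p had 542, 313 and 221 RPM (-0.50, -0.58 to -0.42), and miR-487b-3p had 159, 125 and 74.4 RPM (-0.74, -0.88 to -0.62). miR-299-5p had 509, 335 and 172 reads (-0.76, -1.04 to -0.49), and miR-539-5p had 155, 113 and 58 reads (-0.76, -1.25 to -0.29). These 5 were called lower in both steps, 8.77% of the members against 1.88% of all listed miRNAs. Only miR-299-5p and miR-329-3p kept both calls under all 4 scalings.

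The other 3 of the 8 were close to Control at SB. miR-496-3p had 250 reads in Control, 240 at SB and 116 at Dox (Dox over SB -0.85, -1.18 to -0.52), and miR-379-3p had 185, 184 and 100 reads (-0.68, -1.05 to -0.32). miR-495-5p, the minor arm of its hairpin, had 37, 39 and 15 reads (-1.18, -2.15 to -0.29).

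The p-Smad2/3 activation profile, lower at SB than in Control and higher at Dox than at SB, was found for 23 members (40.4%, against 20.9% of all listed miRNAs), and the opposite profile for none (against 9.67%). Both calls use the SB library, so a low SB value alone makes a profile more likely. With reads on listed miRNAs the profile was found for 8 members (14.0%, against 11.4% of all listed miRNAs). Of these 23, 8 kept the profile under all 4 scalings: miR-758-5p, miR-329-5p, miR-1193-5p, miR-667-5p, miR-154-3p, miR-377-5p, miR-409-3p and miR-412-5p. A further 15 members were lower at SB and not higher at Dox (26.3%, against 9.24%), and these included miR-376a-3p, miR-495-3p, miR-329-3p and miR-134-5p, the 4 most abundant members in Control. miR-376a-3p, miR-495-3p and miR-329-3p kept this pattern under the 4 scalings and miR-134-5p did not.

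Dox against Control does not use the SB library but shares the Control library with SB against Control. A high Control value alone thus makes a lower call in both more likely. In this comparison the members were lower. Of the 57, 24 were called lower (42.1%, against 19.8% of all listed miRNAs) and 7 higher (12.3%, against 30.6%). The members' sum was 26.0% lower at Dox than in Control (log2 ratio -0.43, interval -0.45 to -0.42), while the sum of the other listed miRNAs was 19.1% higher. Their median log2 ratio was -0.30 and that of all listed miRNAs 0.19. All 24 lower calls held under the 4 scalings. Among the 37 members with at least 100 reads in a library, the lowest ratios were those of miR-667-3p (-1.68, -2.08 to -1.30), miR-299-5p (-1.42), miR-329-3p (-1.30), miR-539-5p (-1.27) and miR-134-5p (-1.27, -1.33 to -1.20). The 7 higher members were miR-411-5p, miR-1193-5p, miR-1193-3p, miR-666-5p, miR-668-5p, miR-668-3p and miR-409-3p, and miR-411-5p and miR-409-3p lost the call under at least 1 scaling.

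The arms of 1 hairpin come from the same precursor, so their ratios can be compared without regard to the transcript, and a scaling that multiplies a library by 1 factor does not alter their difference. Both arms had at least 100 reads over the 3 libraries in 14 hairpins, and the 3p arm was the more abundant in 9 of these. Between Control and SB the arms differed beyond counting error in 6 of the 14. Between SB and Dox they differed in 10, the 3p arm having the lower ratio in miR-379, miR-411, miR-380, miR-329, miR-667, miR-381 and miR-377, and the 5p arm in miR-299, miR-154 and miR-409. The intervals cover counting error only, and the spread between cultures is not known. The arms of other listed hairpins were not compared, so whether such differences are particular to the members is not known.

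**Figure D3:**
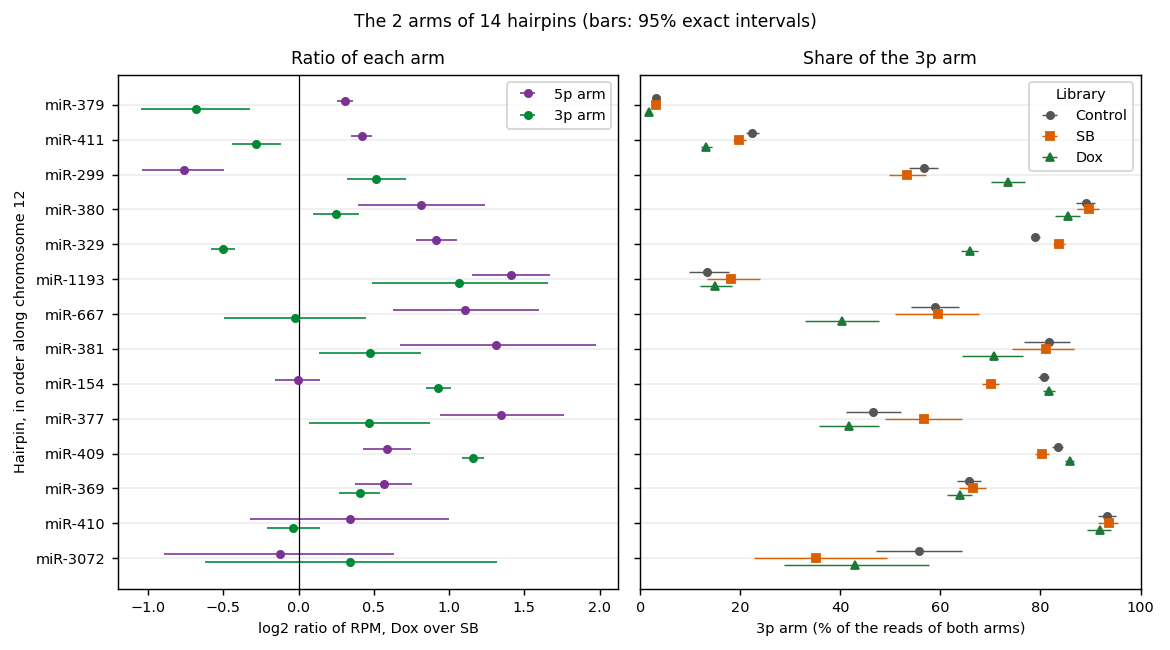
Left, log2 ratio of Dox over SB for the 5p and 3p arm of 14 hairpins, and right, the share of the 3p arm in the reads of both arms in each library, with 95% exact intervals. On the left, the arms of miR-379, miR-411, miR-299 and miR-329 lie on opposite sides of 0 with intervals that leave out 0 on both arms, and on the right the Dox share of miR-329 (65.8%) and of miR-299 (73.6%) stands apart from the other libraries.

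Among these 14 hairpins, miR-329 showed the widest gap between its arms in Dox over SB. miR-329-5p had 144 RPM in Control, 60.7 RPM at SB and 114 RPM at Dox, called lower and then higher, while miR-329-3p was called lower in both steps. The difference in log2 ratio of Dox over SB, 3p minus 5p, was -1.42 (-1.58 to -1.26), and the 3p arm made up 79.0% of the hairpin's reads in Control, 83.7% at SB and 65.8% at Dox. miR-299 went the other way. miR-299-3p had 60.7 RPM in Control, 33.8 RPM at SB and 48.4 RPM at Dox, the difference to miR-299-5p was 1.28 (0.94 to 1.62), and the share of the 3p arm was 56.6%, 53.4% and 73.6%. In miR-154 the SB library stood out, with a 3p share of 70.0% between 80.6% in Control and 81.7% at Dox. miR-154-5p had 91.6, 69.8 and 69.4 RPM, and the difference between the arms in Dox over SB was 0.93 (0.76 to 1.11).

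In the neighbours miR-379 and miR-411 the arms parted in the same direction. miR-379-5p was at 604 RPM at Dox and miR-411-5p at 354 RPM, each above its SB level, while the 3p arms were lower than at SB. The 3p share of miR-411 was 22.4% in Control, 19.8% at SB and 13.2% at Dox, and the difference in log2 ratio of Dox over SB was -0.70 (-0.88 to -0.52), against -0.99 (-1.36 to -0.62) for miR-379. With reads on listed miRNAs, the log2 ratios of miR-379-5p (-0.16) and miR-411-5p (-0.05) were also below 0, so the opposite directions of these arms depend on the scaling while the differences between them do not. With that scaling miR-299-3p was within counting error of 0 (0.05, -0.15 to 0.25), and miR-329-5p was above it (0.45, 0.31 to 0.59).

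In 4 of the other hairpins with unequal arms, miR-380, miR-381, miR-377 and miR-409, both arms were above SB at Dox per library read, by different amounts. miR-380-5p had 113 reads in Control, 79 at SB and 121 at Dox, and miR-380-3p had 930, 690 and 715. miR-381-5p had 52, 31 and 67 reads, and miR-381-3p had 231, 133 and 161. miR-377-3p had 155, 97 and 117 reads, a smaller ratio of Dox over SB than that of miR-377-5p (difference -0.88, -1.46 to -0.30). In miR-409 the 5p arm had the smaller ratio, with 780, 572 and 750 reads for miR-409-5p.

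The arms of miR-369, miR-410, miR-1193 and miR-3072 had no detectable difference in Dox over SB at this depth. miR-369-5p had 534, 409 and 528 reads and miR-369-3p 1026, 811 and 936, each lower at SB and higher at Dox per library read (difference -0.16, -0.40 to 0.07). Neither arm kept either call under all 4 scalings. miR-410-3p, the abundant arm of its hairpin, had 734, 577 and 491 reads, and miR-1193-3p had 40, 40 and 73. In miR-3072, at the end of the row, both arms were called lower at SB and neither was called higher at Dox. miR-3072-5p had 61, 35 and 28 reads and miR-3072-3p 77, 19 and 21, and the arms differed in SB over Control (-1.22, -2.24 to -0.21).

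Members with nearly the same sequence did not always have the same ratios. miR-376a-3p and miR-376b-3p match at 18 of 21 positions, yet miR-376b-3p had 466 RPM in Control, 344 RPM at SB and 512 RPM at Dox, above its Control level (Dox over Control 0.14, 0.08 to 0.19), where miR-376a-3p was still below it (-0.78, -0.81 to -0.74). With reads on listed miRNAs miR-376b-3p too was below Control at Dox (-0.10, -0.16 to -0.05). The log2 ratio of Dox over SB was higher by 0.57 (0.50 to 0.64) in miR-376b-3p, and that of Dox over Control by 0.91 (0.85 to 0.98). Their hairpins lie next to each other, at chr12:109723458-109723539 and chr12:109723781-109723848. miR-300-3p and miR-381-3p, alike at 19 of 22 positions, had no detectable difference at this depth in Dox over SB (-0.02, -0.40 to 0.35). miR-376b is known as a repressor of the autophagy genes Atg4c and Becn1. Precursors of the miR-376 group are also known to be edited by ADAR enzymes, and an edited read would not match perfectly. For the same reason a read with a sequencing error was lost, and the extent of either loss was not tested.

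Members with a shared seed were compared in the same way. miR-379-3p and miR-411-3p, with 20 of 22 positions alike (U10C and U22C), were at 16.9 and 73.8 RPM in Control, at 16.2 and 65.3 RPM at SB and at 10.1 and 53.8 RPM at Dox. In Dox over SB the fold-change per library read reached the threshold in miR-379-3p alone, but with reads on listed miRNAs miR-411-3p passed it too. The log2 ratio was higher in miR-411-3p by 0.40 (0.0047 to 0.80). miR-379-5p and miR-1193-5p share the seed GGUAGAC but only 10 of 20 positions, and the ratio of Dox over SB was higher in miR-1193-5p by 1.10 (0.84 to 1.37). By level, miR-379-5p made up most of this seed, with 604 RPM at Dox against 42.1 RPM for miR-1193-5p. The third pair was scarce, with 42, 13 and 26 reads for miR-494-5p and 52, 39 and 43 reads for miR-410-5p.

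Members were also compared by position. The 20 members within Mirg had a median log2 ratio of -0.48 for SB over Control and 0.44 for Dox over SB, and the 37 upstream had -0.69 and 0.42. Of those within Mirg 14 were lower at SB (70.0%), and of those upstream 24 (64.9%), against 30.2% of all listed miRNAs. At Dox, 11 of those within Mirg (55.0%) and 17 of those upstream (45.9%) were higher than at SB, near the 41.7% of all listed miRNAs. Across the 57 members, which share the libraries, the Pearson correlation of order with the log2 ratio was -0.0024 for SB over Control and 0.0033 for Dox over SB. GC content of the mature sequence ran from 23.8% to 77.3%, and across 54 members its Pearson correlation was -0.17 with the ratio of SB over Control and 0.18 with that of Dox over SB. Over the 47 of these with at least 10 reads in each library the correlations were -0.34 and 0.27. In the 14 hairpins the arm richer in GC had the higher ratio of SB over Control in 3 and of Dox over SB in 11, and the correlation of the GC difference with the difference in ratio was -0.022 and 0.11.

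The other miRNAs of the Dlk1-Dio3 region were counted in lists that share these libraries, against 30.2% of all listed miRNAs lower at SB and 41.7% higher at Dox than at SB. Of the 10 listed arms of the 5 other hairpins, 9 were lower at SB (90.0%), 9 higher at Dox than at SB (90.0%) and 8 had the profile, with medians of -0.96 and 1.09 in log2 ratio. These hairpins were kept apart with earlier results of these libraries known, so their counts are not independent evidence, nor is the contrast with the members. Of 5 Rian miRNAs, 4 were lower at SB (80.0%) and 3 higher at Dox (60.0%). Of 12 miRNAs on the Meg3 side, 7 were lower (58.3%) and 6 higher (50.0%), and of 10 antisense to Rtl1, 5 were lower (50.0%) and 6 higher (60.0%). For the last 3 lists, of 5 to 12 miRNAs, the shares higher at Dox were not far from that of all listed miRNAs. Per library read, the log2 ratios of Dox over Control of the sums were -0.13 for the 5 other hairpins, -0.18 for Rian, 0.04 for the Meg3 side and 0.02 for the Rtl1-antisense miRNAs, and -0.43 for the members. With reads on listed miRNAs they were -0.37, -0.42, -0.20 and -0.22 in the same order, and -0.67 for the members. The difference between the lists was not tested, as each condition had 1 library and miRNAs of 1 transcript are not replicates.

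**Figure D4:**
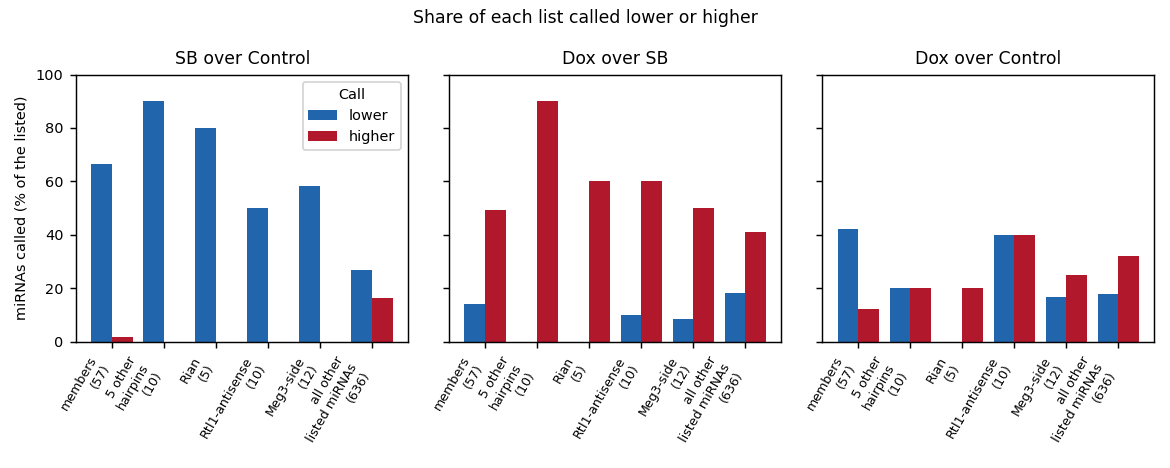
Share of each list called lower (blue) or higher (red) in 3 comparisons, in percent of its listed miRNAs, with the number listed in parentheses. At SB the members are lower in 66.7%, and in Dox over Control they are lower in 42.1% and higher in 12.3%, while of the 636 other listed miRNAs 17.8% are lower and 32.2% higher.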

How the data were processed

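Small RNA was sequenced in 2 runs per library on a GAII, pooled by the authors. According to the methods, adaptors were clipped, reads longer than 16 bases were aligned by the authors to miRBase release 18 with Bowtie (version 0.12.7 in the submitters' processing notes) allowing perfect matches only, a read with several matches was given to the miRNA of the same or else the closest length, or to each of them where several were equal in this, reads left over were aligned to the hairpins and given to the mature form they overlapped in full or in part, and a miRNA was kept if the 3 libraries together held at least 10 reads of it. The genome build is not given in the sources used here. The values deposited by the authors are RPM, reads for each 1000000 reads of the library. All values were whole multiples of 1 step per library within 0.001 reads, which gave the read numbers. Hairpin positions were taken from GENCODE M21 (GRCm38).

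Ratios were of RPM without a pseudocount. Calls followed the study's thresholds, a log2 ratio of 0.32 in size and a Z-score beyond the two-sided 0.05 limit. Levels have Poisson intervals, ratios Clopper-Pearson intervals and differences of ratios conditional exact intervals, all 95% (Python 3.11.15, scipy 1.17.1). With 1 library per condition, no test of a condition was possible and no p-value was computed. Recovery of reads, calls and intervals was checked on simulated data. Members, lists and tests were chosen with earlier results of these data known, and the list of fibroblast miRNAs was written after the files were read. Values are given in full for members with at least 1000 reads in every library, both arms of hairpins with at least 100 reads on each arm, the 5 highest and 5 lowest ratios among members with at least 100 reads in a library, and members that share a seed. Others are given by range and count, except where a count was small and its members were named after their values were seen. The alternatives were scaling to reads on listed miRNAs, median-of-ratios factors, quantile normalization, a pseudocount of 1 RPM, at least 10 reads in each library and a fold-change of 2. The comparison of Dox with Control and the scaling of the lists' sums were added to the alternatives after the data were seen.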

Additional observations from a re-analysis of the deposited data

How the results depend on the processing

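Scaling to the reads on listed miRNAs, median-of-ratios factors and quantile normalization moved values on which the comparisons rest, and the cause was not tested. In this order, members lower at SB than in Control numbered 22, 23 and 28 (38.6%, 40.4% and 49.1%, against 20.8%, 21.6% and 25.5% of all listed miRNAs), members higher at Dox than at SB 12, 14 and 17, and members with the activation profile 8, 8 and 11 (14.0%, 14.0% and 19.3%, against 11.4%, 12.4% and 14.9% of all listed miRNAs), while members lower at Dox than at SB numbered 15, 12 and 11. The log2 ratio of the summed level was -0.42, -0.47 and -0.56 for SB over Control and turned to -0.25, -0.16 and -0.061 for Dox over SB. The median log2 ratio of SB over Control was -0.39, -0.44 and -0.48, that of Dox over SB -0.048 (reversed), 0.041 and 0.11, and that of Dox over Control -0.54, -0.50 and -0.38. With reads on listed miRNAs, the ratios of Dox over SB of miR-411-5p (-0.048) and miR-369-3p (-0.063) also turned below 0. That of SB over Control of miR-379-5p turned above 0 (0.11). Quantile normalization moved the median difference between arms, 3p minus 5p, in Dox over SB from -0.47 to -0.61. With a pseudocount of 1 RPM the median log2 ratio of SB over Control was -0.48. With a fold-change of 2, 11 members were lower at SB than in Control (19.3%, against 9.67% of all listed miRNAs), 14 higher (24.6%, against 22.2%) and 1 lower (1.75%, against 9.67%) at Dox than at SB, 5 had the profile (8.77%, against 5.92%), 6 were lower at SB and not higher at Dox (10.5%, against 3.75%), and 11 were lower (19.3%, against 8.08%) and 2 higher (3.51%, against 13.6%) at Dox than in Control. With at least 10 reads in each library 0 members were higher at SB, since miR-668-5p was left out, and the correlation of GC content with the ratio of SB over Control was -0.34.

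No paired analysis was possible because each condition had 1 library, and for the same reason leaving out a library gave no value. Members with few reads limit the precision: 20 had under 100 reads in every library.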
